A study of Mus musculus with 11 samples.

Results

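The insulin-like growth factor (IGF) axis is described here as 10 genes of the 39017 genes counted: the ligands Igf1 and Igf2, the receptors Igf1r and Igf2r, and the secreted IGF-binding proteins Igfbp2, Igfbp3, Igfbp4, Igfbp5, Igfbp6 and Igfbp7. They were taken by gene symbol, and all 10 passed the filter on low counts in both tissues. In the CA1 of mice lacking Dicer in excitatory neurons, Igf2, Igfbp2, Igfbp5 and Igf2r stood above the control level, with Igf2 at 2.73 times the control. In the neocortex Igf2r was above and Igfbp6 below the control level, and Igf2 did not pass the test. The calls of Igf2r in either tissue and of Igfbp6 each ended when some single libraries were left out. Without control library D5135 Igf2 passed in the neocortex, and its KO effect was not shown to differ between the tissues.

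IGF1 and IGF2 are small peptides related to insulin that signal through the receptor tyrosine kinase IGF1R to the PI3K, AKT and mTOR kinases. IGF2R, also known as the cation-independent mannose 6-phosphate receptor, takes up IGF2 and delivers it to lysosomes. The binding proteins hold the ligands outside the cell, and proteases release them. In the adult rodent brain Igf2 is known mainly from the meninges, the choroid plexus and vessels, Igf1 from microglia and some interneurons, and several binding proteins from neurons, astrocytes and vascular cells. Dicer cuts miRNA precursors into mature miRNAs, and let-7 and miR-29 are known regulators of IGF signalling genes.

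The study compared conditional knockout (KO) mice, Camk2a-Cre;Dicer flox/flox, with controls at 13 to 14 weeks of age. Camk2a-Cre acts in forebrain excitatory neurons, so the other cells of these tissues keep Dicer. The neocortex gave 3 KO libraries (animals D5130, D5132 and D5133) and 3 control libraries (D5129, D5134 and D5135), all from males. The hippocampal CA1 region gave 2 KO libraries (D5130 and D5133, males) and 3 control libraries (D5134 and D5135, males, and D5138, a female), and 4 of the 7 animals gave both tissues. The genotype of the control animals is not given in the labels.

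Polyadenylated RNA was sequenced to between 43144097 and 58329441 gene reads per neocortex library and between 24806581 and 35684618 per CA1 library. Levels are given as CPM, read counts scaled to a common library size, with library sizes taken as gene reads and adjusted by TMM. Dicer1 was at 63.3, 59.0 and 60.6 CPM in neocortex KO libraries, against 66.5, 59.3 and 62.4 CPM in neocortex control libraries. The CA1 levels were 73.4 and 71.6 CPM in KO libraries, against 74.0, 68.7 and 75.2 CPM in control libraries. These reads come from the full length of Dicer1, and loss of the floxed exons cannot be read from them. Markers of excitatory neurons summed to 5223 to 5332 CPM in neocortex KO libraries and 5980 to 6005 CPM in neocortex control libraries, and to 4780 to 5246 CPM in CA1 KO libraries and 5397 to 6031 CPM in CA1 control libraries, with none of the 12 markers at 0. By their ERCC spike-in reads the neocortex libraries fell into a set of D5129, D5130 and D5132 and a set of D5133, D5134 and D5135. One neocortex control library, D5135, stood apart in the markers of meningeal fibroblasts that are given beside Igf2, and results that rest on it are given with and without it.

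Because the study removed the enzyme that makes miRNAs, the 3′ UTRs of the 10 genes were searched for the seed matches of 13 miRNA families. They were let-7, miR-9, miR-26, miR-27, miR-29, miR-30, miR-103, miR-125, miR-128, miR-138, miR-181, miR-206 and miR-218. Matches of other families, miR-124 among them, were not searched. An 8mer match pairs with miRNA bases 2 to 8 and has an A opposite base 1. The mature miRNAs of the families with an 8mer match in these genes are printed first, from RefSeq (GRCm38.p6), with the seed, bases 2 to 8, in capitals. miR-206 stands for the family that also holds miR-1.
mmu-let-7a-5p: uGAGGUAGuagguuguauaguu
mmu-miR-29a-3p: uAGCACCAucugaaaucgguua
mmu-miR-138-5p: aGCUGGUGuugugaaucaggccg
mmu-miR-206-3p: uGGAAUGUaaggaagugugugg

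The let-7 8mer, CTACCTCA, was found on the sense strand of the longest annotated 3′ UTR in Igf1, Igf1r and Igf2r. Of the 20490 genes with an annotated 3′ UTR, 3.09% held it. The sites are printed with the 22 bases before them, from GENCODE M21 on GRCm38, with the match in capitals.
Igf1, chr10:87932072-87932101 (+): atgggggcaatatgtcatctacCTACCTCA
Igf1r, chr7:68229103-68229132 (+): ggcttgtttttcaaacatttatCTACCTCA
Igf2r, chr17:12683036-12683065 (-): gaaggcccacctgctccgtgccCTACCTCA

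The other 8mers lay in Igf1, with a pair of miR-29 sites (TGGTGCTA, in 2.81% of genes) and a miR-206 site (ACATTCCA, 3.85%), and in Igfbp2, with a miR-138 site (CACCAGCA, 4.33%). They are printed in the same way, since together with the let-7 sites they are all the 8mers of the 13 families in the 10 genes.
Igf1, miR-29, chr10:87931649-87931678 (+): ttgttgttgttttttagtacaaTGGTGCTA
Igf1, miR-29, chr10:87934283-87934312 (+): tgtttggccagctacgccaatgTGGTGCTA
Igf1, miR-206, chr10:87930867-87930896 (+): ccccaatgaaatatacaagtaaACATTCCA
Igfbp2, miR-138, chr1:72852178-72852207 (+): tgcctggcttccccatcccgaaCACCAGCA

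Counting 7mers as well, Igf1 held 11 matches in a 3′ UTR of 6308 bases and Igf1r held 10 in 7267 bases. Igf2 held 6 matches in 3050 bases, and Igf2r held 2 in 1304 bases. The binding proteins held 4 matches in Igfbp5, 3 each in Igfbp3 and Igfbp4, and 1 each in Igfbp2 and Igfbp7, and Igfbp6 held none of the motifs searched in its 209 bases. An 8mer of at least 1 of the 13 families was present in 36.3% of all genes with a 3′ UTR, and the median 3′ UTR was 971 bases long. Of the genes with a higher level in KO tissue in the tests below, Igf2r and Igfbp2 held an 8mer, and Igf2 and Igfbp5 held 7mers. Igf1 and Igf1r, which held the most matches, did not pass in either tissue. A 7mer or 8mer of a given family was present in 15.0% (let-7) to 27.3% (miR-128) of all genes with a 3′ UTR.

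The intervals given for these genes in the deposited table did not all reach the annotated 3′ end. The interval held 2.27% of the longest 3′ UTR of Igf1, 5.22% of that of Igf1r, 8.28% of that of Igfbp4 and 0 of the 312 bases of that of Igfbp2. The 3′ UTRs of the other 6 genes lay inside it. Of the let-7 8mers printed above, that of Igf2r lay inside the interval, and those of Igf1 and Igf1r lay outside it. Whether reads beyond the intervals were counted was not tested.

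**Figure D1:**
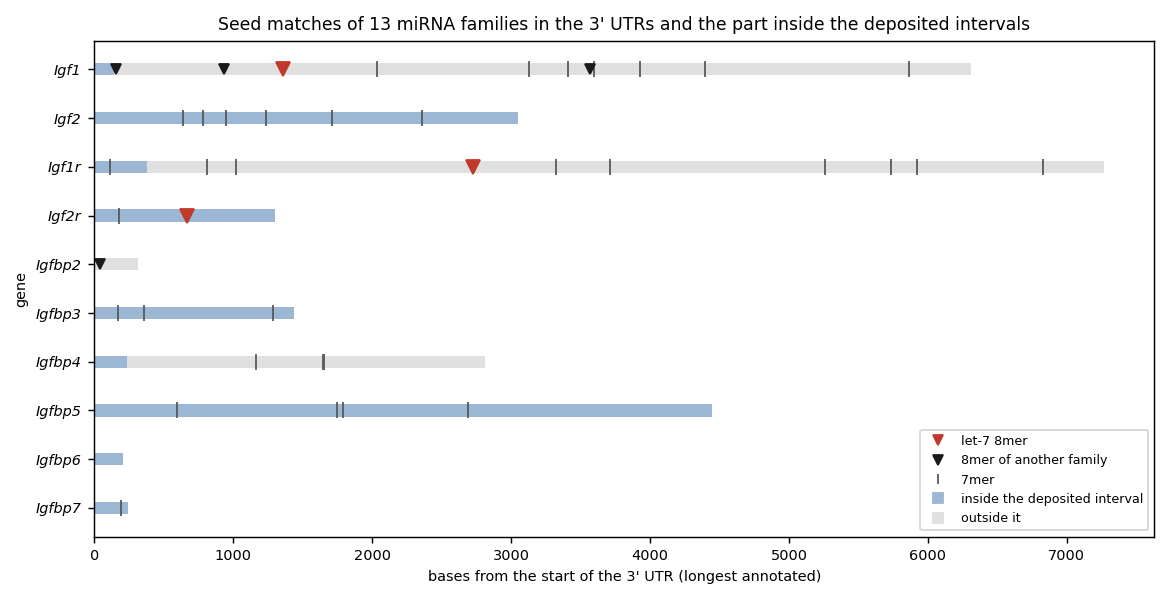
Longest annotated 3′ UTR of each of the 10 genes, in bases from its start on the x axis, with the seed matches of 13 miRNA families (triangles: 8mers, let-7 in red; ticks: 7mers). The blue part lies inside the interval of the deposited table and the grey part outside it: Igf2r carried its let-7 8mer inside, and Igf1 (143 of 6308 bases inside) and Igf1r (379 of 7267) carried theirs outside.

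Within each tissue KO libraries were set against control libraries by edgeR's quasi-likelihood test, with p-values adjusted over all genes tested and a threshold of 0.05. In the neocortex, 2.71% of the 16971 genes tested passed, 1.51% with a higher and 1.20% with a lower level in KO. Of the 10 IGF axis genes 1 was higher (Igf2r), 1 was lower (Igfbp6) and 8 did not pass. In the CA1, 3.89% of the 18274 genes passed, 2.47% higher and 1.41% lower. Of the 10 genes 4 were higher (Igf2, Igfbp2, Igfbp5 and Igf2r), and 6 did not pass. The median log2 fold change of the 10 genes was 0.11 in the neocortex, beside 0.00 over all genes, and 0.25 in the CA1, beside 0.00 over all genes. DESeq2 called the same 2 genes in the neocortex and the same 4 in the CA1.

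**Figure D2:**
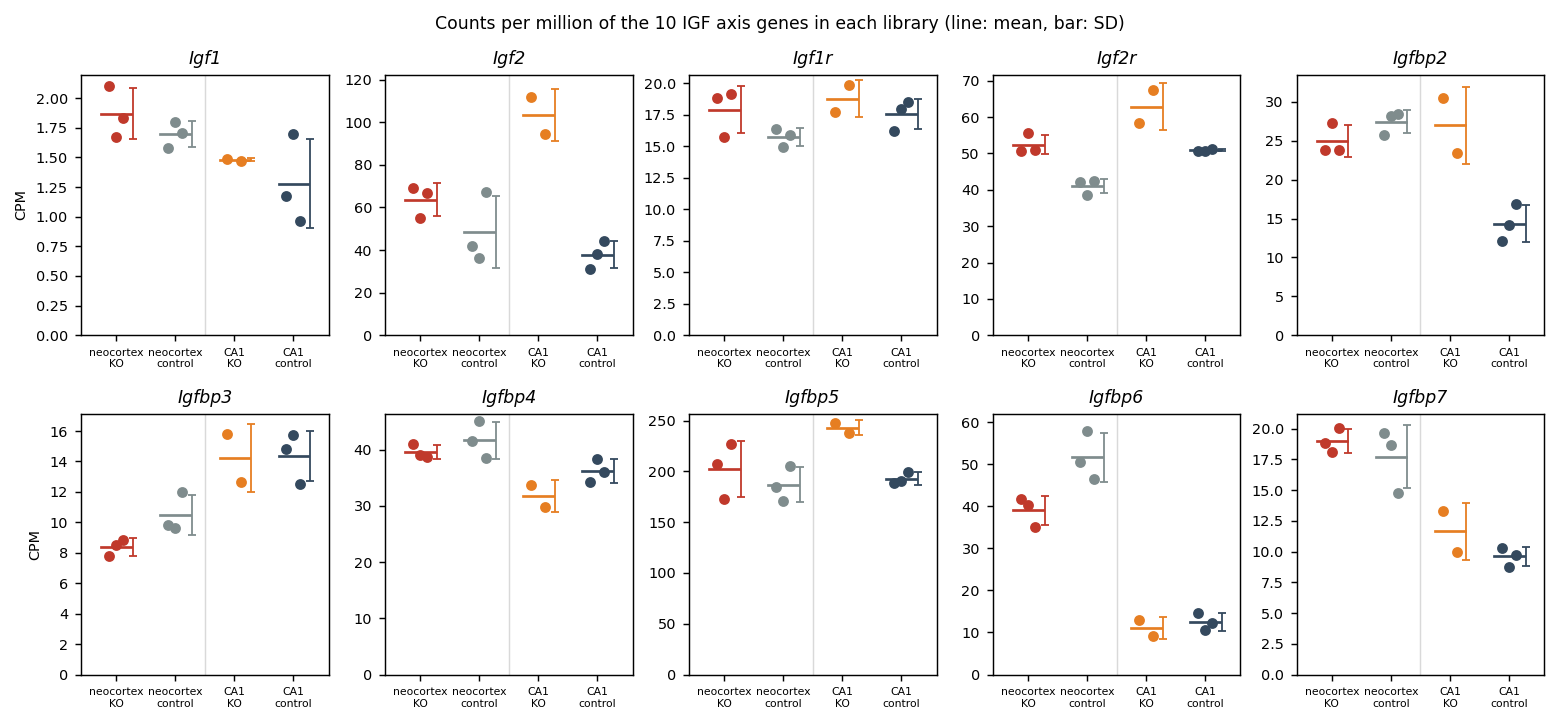
CPM of each of the 10 genes (y axis, linear and from 0) in every library, by tissue and genotype; points are libraries, lines are means and bars are SD (n = 3, 3, 2 and 3 from left to right). In the CA1, Igf2 sat at 94.8 and 112 CPM in KO libraries, above the highest control library at 44.4 CPM.

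Among the ligands, Igf2 (ENSMUSG00000048583, chromosome 7, 142650766 to 142666816, minus strand, GRCm38), an imprinted growth factor, changed most. Its CA1 levels were 112 and 94.8 CPM in KO libraries D5130 and D5133, against 31.3, 38.0 and 44.4 CPM in control libraries D5134, D5135 and D5138. Both KO libraries were more than 2 times the highest control library. The log2 fold change was 1.45 (SE 0.14, 95% interval 1.12 to 1.77, adjusted p = 0.00210 by edgeR), with means of 103 ± 12.3 CPM in KO (SD, n = 2) and 37.9 ± 6.54 CPM in control (SD, n = 3). It passed without each of the 5 libraries in turn, the female control included, at 1.32 to 1.58.

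In the neocortex Igf2 was at 69.1, 54.9 and 67.0 CPM in KO libraries D5130, D5132 and D5133, against 41.9, 36.1 and 67.5 CPM in control libraries D5129, D5134 and D5135. The groups overlapped, since control library D5135 was as high as the KO libraries, and the other control libraries were below all of them. The log2 fold change was 0.39 (SE 0.27, adjusted p = 0.547 by edgeR). Without D5135 it was 0.71 (SE 0.11, adjusted p = 0.00895 by edgeR), so the call depended on that library. The KO effect in the CA1 exceeded that in the neocortex by 1.05 log2 (SE 0.36, 95% interval 0.21 to 1.90), which did not pass (adjusted p = 0.410 by edgeR), and by 0.72 without the neocortex library D5135 (adjusted p = 0.267 by edgeR).

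Other genes lie across Igf2. Gm49394 shares 3596 exon bases with it on the same strand and had no entry among the genes counted. A share of the reads given for Igf2 could therefore come from either gene. The antisense gene Igf2os, which shares 98 exon bases, had 3 to 17 reads per library, beside 827 to 3916 reads for Igf2.

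Igf1 (ENSMUSG00000020053, chromosome 10, 87858265 to 87937042, plus strand), the main IGF1R ligand, was counted at 31 to 112 reads per library. In the neocortex it was at 2.10, 1.68 and 1.83 CPM in KO libraries, against 1.58, 1.80 and 1.71 CPM in control libraries. In CA1 tissue it was at 1.49 and 1.47 CPM in KO libraries, against 1.17, 1.70 and 0.967 CPM in control libraries. The groups overlapped in both tissues. The log2 fold changes were 0.14 (SE 0.19, 95% interval -0.26 to 0.55, adjusted p = 0.764 by edgeR) in the neocortex and 0.21 (SE 0.32, 95% interval -0.47 to 0.89, adjusted p = 0.806 by edgeR) in the CA1. Of 18 listed markers of activated microglia, cells known to make Igf1, 12 rose in the neocortex KO and 13 in the CA1 KO. The neocortex count was 2 without KO library D5133, 6 to 8 without KO library D5132 or control library D5129 or D5135, and 0 and 7 within the spike-in sets. The list summed to 1306 to 1378 CPM in neocortex KO libraries and 1225 to 1329 CPM in neocortex control libraries, and to 1293 to 1368 CPM in CA1 KO libraries and 1052 to 1105 CPM in CA1 control libraries, where Cst7 and Clec7a were at 0 in at least 1 library. Ctsb and Ctsd took most of these sums. In the neocortex Ctsb averaged 641 CPM in KO and 685 CPM in control tissue, and Ctsd 463 and 390 CPM. In the CA1 Ctsb averaged 555 and 559 CPM, and Ctsd 439 and 298 CPM. Of 12 listed general microglia markers 0 passed by edgeR in the neocortex, with a median of -0.05, while 2 rose and 1 fell by DESeq2. In the CA1 4 of them rose, with a median of 0.18. The part of the microglia markers in the Igf1 level was not tested.

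Markers of meningeal fibroblasts, cells known to make Igf2, moved with it. Ptgds, which took most of the list's summed level, was left out of the sum after its values were seen. The other 14 markers summed to 198 and 171 CPM in CA1 KO libraries D5130 and D5133, against 85.2, 81.0 and 87.1 CPM in CA1 control libraries D5134, D5135 and D5138. In the neocortex they summed to 138, 93.6 and 121 CPM in KO libraries D5130, D5132 and D5133, against 80.3, 81.7 and 162 CPM in control libraries D5129, D5134 and D5135. The order of the libraries in this sum was close to that of Igf2: D5130 was highest in the CA1, and control library D5135 stood with the KO libraries in the neocortex.

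Across the 15 markers, Ptgds included, 5 rose in the CA1 KO, with a median log2 fold change of 1.23. These 5 were Col1a2 at 1.30 and Aebp1 at 1.41, and, named because they passed, Crabp2 at 2.01, Slc22a6 at 1.38 and Ogn at 0.90. The secreted matrix protein Dcn, at 1.01 (adjusted p = 0.391 by edgeR), and Ptgds, at 1.23 (adjusted p = 0.317 by edgeR), did not pass. The count was 3 without CA1 KO library D5130, and 5 to 7 without each of the others. With Ptgds the list summed to 528 to 906 CPM in CA1 KO libraries and 250 to 361 CPM in CA1 control libraries, and none of the markers was at 0 in any library.

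In the neocortex 0 of the 15 markers passed by edgeR or by DESeq2, 0 had an unadjusted p under 0.05, and their median was 0.05. Without control library D5135, 2 passed and the median was 0.53.

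Igf2 over the 14-marker sum was 0.565 and 0.555 in CA1 KO libraries, against 0.368, 0.470 and 0.510 in CA1 control libraries. In the neocortex the ratio was 0.501, 0.587 and 0.555 in KO libraries, against 0.522, 0.442 and 0.417 in control libraries. The ratio was higher in both CA1 KO libraries than in the controls by less than the Igf2 level itself, and in the neocortex the groups overlapped. In bulk tissue, more cells of a type and more RNA per cell cannot be told apart. The part of the meningeal markers in the Igf2 result was not tested. Markers of the choroid plexus, another known source, summed to 23.8 to 26.5 CPM in CA1 KO libraries and 25.6 to 32.7 CPM in CA1 control libraries, with Folr1, Otx2 and Slc4a5 at 0 in at least 1 CA1 library. Kl made up most of that sum, and without it, a choice made after its values were seen, the list summed to 6.26 to 8.39 CPM in CA1 KO libraries and 6.28 to 9.08 CPM in CA1 control libraries. Of the 8 tested in the CA1, 0 passed by edgeR or DESeq2, and 0 had an unadjusted p under 0.05.

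Some markers of vessel cells and astrocytes, known sources of IGF ligands or binding proteins, also rose in the CA1 KO libraries in which Igf2, Igfbp2 and Igfbp5 rose. Of 10 listed markers of pericytes and smooth muscle 4 rose in the CA1 KO, with a median of 0.38. They were Vtn and, named because they passed, Acta2, Tagln and Myh11, while Rgs5, at 0.10 (adjusted p = 0.488 by edgeR), did not pass. Other pericyte markers on the list did not pass either. Pdgfrb (0.17) and Abcc9 (0.18) lay above 0, and Kcnj8 (-0.12) and Cspg4 (-0.01) lay below it. That list summed to 284 CPM in each CA1 KO library and 210 to 220 CPM in CA1 control libraries.

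The 12 endothelial markers had a median log2 fold change of 0.13 in the CA1 KO. Kdr (-0.23), Flt1 (-0.11), Emcn (-0.08), Slco1a4 (-0.08) and Cldn5 (-0.04) lay below 0, and the others above it. The list summed to 313 to 325 CPM in CA1 KO libraries and 271 to 291 CPM in CA1 control libraries. Of the 12 markers 2 rose, Slc2a1 at 0.53 and, named because it passed, Pecam1 at 0.42. That count was 0 without KO library D5130, without KO library D5133 and without control library D5138, and 1 without control library D5135. Of 12 astrocyte markers 2 rose, Gfap at 0.96 and, named because it passed, Aqp4 at 0.32, and the median was 0.17. The list summed to 3747 to 3900 CPM in CA1 KO libraries and 3103 to 3170 CPM in CA1 control libraries. Gfap made up a large part of that gap, at 652.5 and 768 CPM in KO, against 343, 366 and 384 CPM in control. Sox9 was lower in KO, at 31.4 and 33.1 CPM, against 36.4, 36.9 and 34.1 CPM in control. The astrocyte count was 1 without KO library D5133 and without control libraries D5135 and D5138. No marker of these 3 lists was at 0, and their part in the Igf2 result was not tested.

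**Figure D3:**
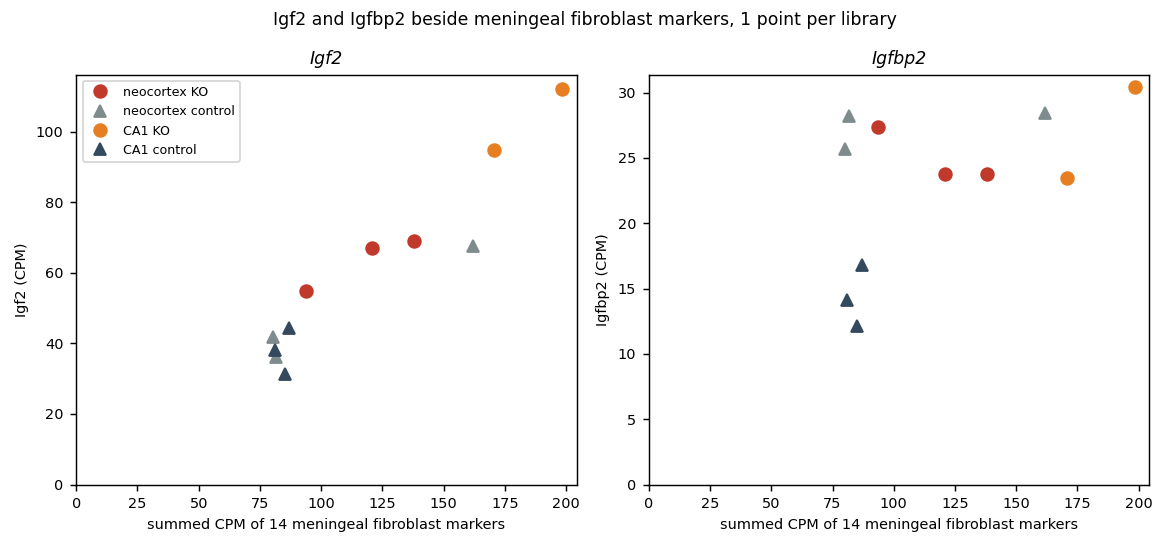
CPM of Igf2 (left) and Igfbp2 (right) on the y axis against the summed CPM of 14 meningeal fibroblast markers on the x axis, 1 point per library; circles are KO and triangles are control libraries. The CA1 KO libraries lie at sums of 198 and 171 CPM with the highest Igf2 levels, the CA1 control libraries lie between 81.0 and 87.1 CPM, and neocortex control library D5135 lies at 162 CPM.

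Of the receptors, Igf2r (ENSMUSG00000023830, chromosome 17, 12682406 to 12769664, minus strand), the gene of the IGF2 uptake receptor, was higher in both tissues. In the neocortex it was at 50.7, 55.5 and 51.0 CPM in KO libraries, against 42.0, 38.7 and 42.4 CPM in control libraries. The CA1 levels were 58.4 and 67.4 CPM in KO libraries, against 50.8, 50.7 and 51.1 CPM in control libraries. The groups did not overlap in either tissue, and the CA1 control libraries had an SD of 0.234 CPM.

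The log2 fold change of Igf2r was 0.35 (SE 0.065, 95% interval 0.21 to 0.49, adjusted p = 0.0165 by edgeR) in the neocortex and 0.30 (SE 0.075, 95% interval 0.14 to 0.47, adjusted p = 0.0376 by edgeR) in the CA1. The difference between the tissues was -0.05 (SE 0.10, 95% interval -0.26 to 0.17, adjusted p = 0.944 by edgeR). The neocortex call ended without KO library D5132 (0.31, adjusted p = 0.0762 by edgeR) and without KO library D5133 (0.37, adjusted p = 0.0913 by edgeR). Within the spike-in sets the neocortex values were 0.34 and 0.34, and with the set as a term 0.33, none of which passed (adjusted p = 0.290, 0.516 and 0.0594 by edgeR). The CA1 call passed without KO library D5130 (0.41). It ended without KO library D5133 (0.19, adjusted p = 0.311 by edgeR) and without control libraries D5134 (0.30, adjusted p = 0.0790), D5135 (0.30, adjusted p = 0.0741) and D5138 (0.31, adjusted p = 0.158). Airn, the antisense transcript of the Igf2r locus, shares no exon bases with Igf2r and had 19 to 52 reads per library.

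Igf1r (ENSMUSG00000005533, chromosome 7, 67952827 to 68233668, plus strand), which encodes the signalling receptor, was at 18.8, 15.8 and 19.1 CPM in neocortex KO libraries, against 16.3, 15.0 and 15.9 CPM in neocortex control libraries. In the CA1 it was at 17.7 and 19.8 CPM in KO libraries, against 16.2, 17.9 and 18.5 CPM in control libraries. The groups overlapped in both tissues, with KO library D5132 of the neocortex among the controls. The log2 fold changes, 0.19 (SE 0.092, 95% interval -0.01 to 0.39, adjusted p = 0.318 by edgeR) in the neocortex and 0.09 (SE 0.10, 95% interval -0.13 to 0.32, adjusted p = 0.722 by edgeR) in the CA1, did not pass.

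Among the binding proteins, Igfbp2 (ENSMUSG00000039323, chromosome 1, 72824503 to 72852474, plus strand), a carrier that can also bind integrins, differed between the tissues. In CA1 tissue it was at 30.5 and 23.5 CPM in KO libraries D5130 and D5133, against 12.1, 14.1 and 16.8 CPM in control libraries D5134, D5135 and D5138. The CA1 groups did not overlap. In the neocortex it was at 23.8, 27.3 and 23.7 CPM in KO libraries, against 25.7, 28.2 and 28.5 CPM in control libraries, where KO library D5132 lay among the controls.

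The log2 fold change of Igfbp2 in the CA1 was 0.91 (SE 0.14, 95% interval 0.60 to 1.22, adjusted p = 0.00497 by edgeR), a level 1.88 times the control. It passed without each library but KO library D5130, without which it was 0.71 (adjusted p = 0.0522 by edgeR). In the neocortex it was -0.14 (SE 0.080, 95% interval -0.31 to 0.04, adjusted p = 0.410 by edgeR). The difference between the KO effects, CA1 minus neocortex, was 1.05 (SE 0.17, 95% interval 0.69 to 1.40, adjusted p = 0.0313 by edgeR).

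It was the only call among the 10 genes for this difference, where 0.0935% of the 19256 genes tested passed, 0.0571% upward and 0.0364% downward. With animal as a replicate block the difference was 1.28 (SE 0.15, adjusted p = 0.00141 by edgeR). It passed in 3 of the 11 fits without 1 library, at 0.81 to 1.20 in all of them. The call ended without CA1 libraries D5130 (0.81, adjusted p = 0.148 by edgeR) and D5135 (1.01, adjusted p = 0.0784). It also ended without each of the neocortex libraries D5130, D5132, D5133, D5129, D5134 and D5135, at 0.99 to 1.09.

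The same meningeal fibroblast markers stood beside Igfbp2, which meningeal cells are also known to make. Igfbp2 over the 14-marker sum was 0.154 and 0.138 in CA1 KO libraries, against 0.142, 0.175 and 0.193 in CA1 control libraries, so that the groups overlapped in the ratio. In the neocortex Igfbp2 did not follow the sum, and control library D5135 had 28.5 CPM of Igfbp2 beside a sum of 162 CPM, where D5134 had 28.2 CPM beside 81.7 CPM. Some of the vessel and astrocyte markers given with Igf2 rose in the same CA1 KO libraries. The part of these markers in the Igfbp2 result was not tested.

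Igfbp5 (ENSMUSG00000026185, chromosome 1, 72857932 to 72874884, minus strand), a matrix-binding carrier that lies next to Igfbp2, rose in the CA1 KO. It was at 248 and 238 CPM in CA1 KO libraries, against 188, 190 and 200 CPM in CA1 control libraries. The groups did not overlap. The log2 fold change was 0.33 (SE 0.057, 95% interval 0.21 to 0.46, adjusted p = 0.00575 by edgeR), and it passed without each of the 5 libraries in turn, at 0.30 to 0.36. In the neocortex it was at 207, 173 and 227 CPM in KO libraries, against 185, 171 and 205 CPM in control libraries, which overlapped (log2 fold change 0.11, SE 0.11, adjusted p = 0.655 by edgeR). The difference between the tissues was 0.22 (SE 0.13, 95% interval -0.06 to 0.50, adjusted p = 0.637 by edgeR), so the KO effect was not shown to differ. In the same CA1 KO libraries the meningeal, vessel and astrocyte markers moved as given with Igf2. Of 10 oligodendrocyte markers 9 fell, with sums of 3093 to 3118 CPM in CA1 KO libraries and 3797 to 4594 CPM in CA1 control libraries and none at 0. That count was 5 without KO library D5130 and 5 without KO library D5133. The part of these markers in the Igfbp5 result was not tested.

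Igfbp6 (ENSMUSG00000023046, chromosome 15, 102144362 to 102149511, plus strand), a binding protein that prefers IGF2, fell in the neocortex KO. It was at 41.7, 40.3 and 35.2 CPM in neocortex KO libraries, against 50.6, 58.0 and 46.6 CPM in neocortex control libraries. All KO libraries were below all control libraries. The log2 fold change was -0.41 (SE 0.089, 95% interval -0.60 to -0.21, adjusted p = 0.0366 by edgeR).

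The call for Igfbp6 passed without control library D5135 (-0.48) and ended without each of the others. It was -0.45 without KO library D5130 (adjusted p = 0.0560 by edgeR), -0.43 without D5132 (0.102) and -0.33 without D5133 (0.201). It was -0.42 without control library D5129 (adjusted p = 0.0843 by edgeR) and -0.32 without D5134 (0.0632). It was -0.30 and -0.57 within the spike-in sets and -0.44 with the set as a term, and none of these passed (adjusted p = 0.324, 0.112 and 0.0672 by edgeR). In the CA1 Igfbp6 was at 13.0 and 9.24 CPM in KO libraries, against 14.7, 10.6 and 12.1 CPM in control libraries, and the log2 fold change of -0.15 (SE 0.17, 95% interval -0.52 to 0.21, adjusted p = 0.712 by edgeR) did not pass.

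Igfbp3 (ENSMUSG00000020427, chromosome 11, 7206086 to 7213923, minus strand), which carries IGFs in blood, was at 7.76, 8.54 and 8.86 CPM in neocortex KO libraries, against 9.80, 9.62 and 12.02 CPM in neocortex control libraries. These groups did not overlap, with KO the lower, and the log2 fold change of -0.32 (SE 0.12, 95% interval -0.57 to -0.07, adjusted p = 0.169 by edgeR) did not pass. The CA1 levels were 15.8 and 12.7 CPM in KO libraries, against 14.8, 15.7 and 12.5 CPM in control libraries, and the log2 fold change was -0.01 (SE 0.13, adjusted p = 0.991 by edgeR).

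Igfbp4 (ENSMUSG00000017493, chromosome 11, 99041244 to 99054392, plus strand), an inhibitory binding protein that the protease PAPP-A cleaves, was at 33.8 and 29.8 CPM in CA1 KO libraries, against 34.2, 38.3 and 36.1 CPM in CA1 control libraries. KO was the lower without overlap, by a narrow margin, and the log2 fold change of -0.19 (SE 0.090, 95% interval -0.38 to 0.01, adjusted p = 0.304 by edgeR) did not pass. In the neocortex it was at 41.1, 39.1 and 38.7 CPM in KO libraries, against 41.5, 45.1 and 38.5 CPM in control libraries (log2 fold change -0.07, SE 0.070, adjusted p = 0.653 by edgeR).

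Igfbp7 (ENSMUSG00000036256, chromosome 5, 77349240 to 77408041, minus strand), a vascular protein that binds IGFs weakly, was at 18.8, 18.1 and 20.01 CPM in neocortex KO libraries, against 19.7, 18.7 and 14.8 CPM in neocortex control libraries. Its CA1 levels were 13.3 and 10.0 CPM in KO libraries, against 10.3, 8.77 and 9.75 CPM in control libraries. The groups overlapped in both tissues. The log2 fold changes, 0.10 (SE 0.10, adjusted p = 0.683 by edgeR) and 0.28 (SE 0.14, adjusted p = 0.341 by edgeR), did not pass. It shares 85 exon bases with Polr2b on the other strand, which matters for the unstranded CA1 libraries.

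Counted over the 10 genes, KO and control libraries did not overlap for 3 genes in the neocortex, 1 higher and 2 lower. Over all genes tested there, 24.0% did not overlap, 11.6% with KO higher and 12.4% with KO lower. In the CA1 5 of the 10 did not overlap, 4 higher and 1 lower, beside 33.7% of all genes, 17.4% higher and 16.3% lower.

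**Figure D4:**
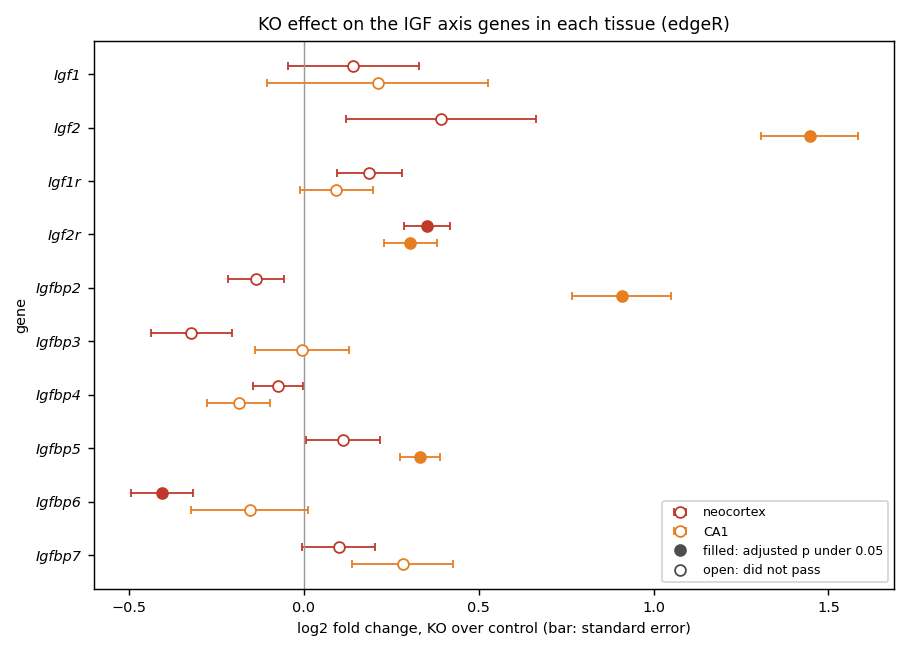
Log2 fold change of KO over control for each of the 10 genes (x axis; bars are standard errors), with neocortex in red above CA1 in orange; filled points passed edgeR's test at an adjusted p under 0.05. Igf2r is filled in both tissues at 0.35 and 0.30, Igf2 and Igfbp2 lie far to the right in the CA1 at 1.45 and 0.91, and Igfbp6 is filled in the neocortex at -0.41.

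Levels were compared between genes only per length, as RPKM, the CPM divided by the annotated exon length in kilobases. In CA1 control tissue the order was Igfbp5 (32.1 ± 1.04 RPKM), Igfbp6 (11.2 ± 1.87), Igfbp4 (8.20 ± 0.47), Igfbp7 (7.95 ± 0.65), Igfbp2 (7.77 ± 1.27), Igf2 (6.62 ± 1.14), Igf2r (5.46 ± 0.025), Igfbp3 (4.58 ± 0.53), Igf1r (1.05 ± 0.071) and Igf1 (0.129 ± 0.038; SD, n = 3 each). Igfbp5 stood clear of the rest, Igf1r and Igf1 stood clear at the bottom, and the libraries of Igfbp4, Igfbp7 and Igfbp2 overlapped. So did those of Igfbp2 and Igf2, and those of Igf2 and Igf2r.

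In CA1 KO tissue Igf2 was second, at 18.1 ± 2.15 RPKM (SD, n = 2), behind Igfbp5 at 40.4 ± 1.22 RPKM. Igfbp2 followed at 14.6 ± 2.68 RPKM, and its highest library (16.5 RPKM) was next to the lowest Igf2 library (16.6 RPKM). Igfbp6 and Igfbp7 overlapped below them, at 10.0 and 9.63 RPKM, and Igfbp4 and Igf2r overlapped at 7.20 and 6.76 RPKM.

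In the neocortex Igfbp6 and Igfbp5 led in KO tissue at 35.1 ± 3.10 and 33.7 ± 4.59 RPKM, with overlapping libraries, against 46.5 ± 5.24 and 31.2 ± 2.89 RPKM in control tissue (SD, n = 3 each), where they did not overlap. Igf2 averaged 11.1 RPKM in neocortex KO tissue and 8.47 RPKM in neocortex control tissue, and Igf1 was last in both at 0.189 and 0.172 RPKM. By its mean Igfbp6 ranked first in the neocortex and second among CA1 control levels, and this order between tissues was not tested, since the library kits differed.

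Igfbp5 made up 44.3% and 49.7% of the summed RPKM of the 6 binding proteins in CA1 KO libraries, against 43.4% to 45.4% in CA1 control libraries. In the neocortex its share was 27.0% to 34.2% in KO libraries and 22.8% to 29.4% in control libraries. Igf2 exceeded Igf1 in RPKM in every library, by 111 and 130 times in CA1 KO libraries and 38.7 to 79.5 times in CA1 control libraries.

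The order depended on the length used for genes whose deposited interval was short. With the exons inside that interval, a length added after seeing the files, Igfbp4 was at 19.7 RPKM and second in CA1 control tissue, and at 21.6 RPKM in neocortex KO and 22.7 RPKM in neocortex control tissue. Igfbp5 then came first in neocortex KO tissue, at 37.5 RPKM, before Igfbp6 at 35.1 RPKM. Igf2 over Igf1 was then 42.0 and 49.1 in CA1 KO libraries, against 17.4 and 14.6 in CA1 control libraries D5134 and D5135, and control library D5138 lay between these and the KO libraries. Igf1 remained last at 0.342 RPKM in CA1 control tissue.

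**Figure D5:**
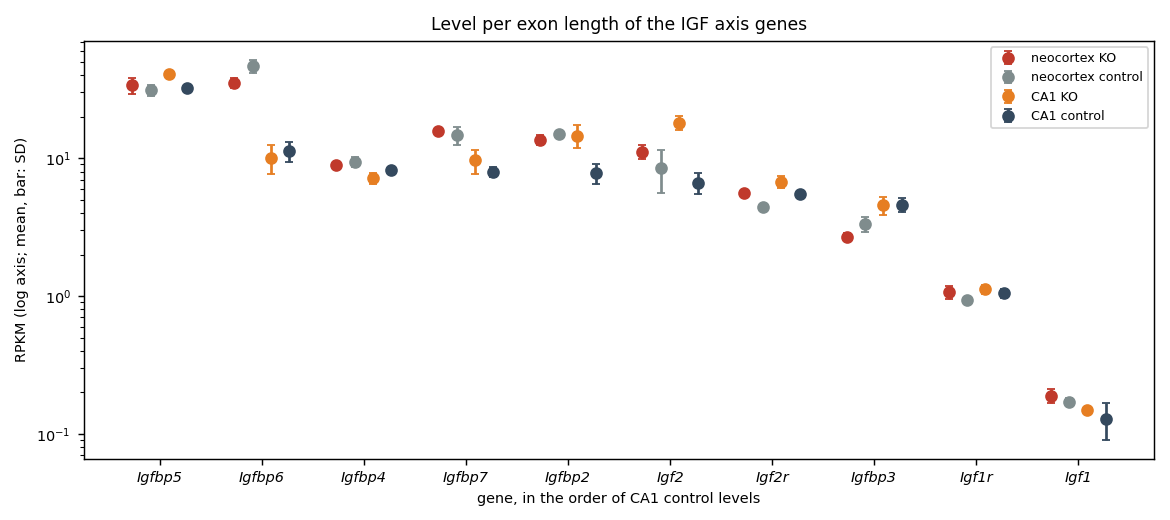
RPKM of the 10 genes on a log axis, in the order of their CA1 control means; points are group means and bars are SD (n = 3, 3, 2 and 3 for neocortex KO, neocortex control, CA1 KO and CA1 control). With this exon length Igfbp5 led in the CA1, Igfbp6 led in the neocortex by its mean, and Igf1 was last in all 4 groups, between 0.129 and 0.189 RPKM.

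Other genes of the pathway were read from 5 lists of 76 genes in all. In the neocortex 65 were tested, of which 4 rose, 1 fell and 60 did not pass, with a median log2 fold change of 0.06. In the CA1 66 were tested, of which 6 rose and 60 did not pass, with a median of 0.07. For the difference between the tissues 0 of 68 passed by edgeR and 3 by DESeq2, while 14 had an unadjusted p under 0.05. Over all genes tested, 1.51% rose and 1.20% fell in the neocortex, and 2.47% rose and 1.41% fell in the CA1. At an unadjusted p under 0.05, 11 of the 65 rose and 2 fell in the neocortex. By the same measure 16 of the 66 rose and 4 fell in the CA1. Over all genes tested, 17.97% had an unadjusted p under 0.05 in the neocortex, 17.3% in the CA1 and 9.51% for the difference between the tissues. The neocortex count was 1 without KO library D5130, D5132 or D5133 and 2 without control library D5129, and the CA1 count was 1 without KO library D5133.

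Of the genes that process, carry or clear the ligands, 10 of 12 were tested. Stc1, a stanniocalcin that inhibits the protease PAPP-A, rose in both tissues. It was at 4.70, 5.88 and 4.57 CPM in neocortex KO libraries, against 2.76, 2.95 and 3.23 CPM in neocortex control libraries, and at 6.20 and 9.60 CPM in CA1 KO libraries, against 3.79, 3.91 and 4.66 CPM in CA1 control libraries. No KO library reached down to the controls in either tissue. Its log2 fold changes were 0.76 (SE 0.15, adjusted p = 0.0239 by edgeR) and 0.92 (SE 0.19, adjusted p = 0.0171 by edgeR).

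The related inhibitor Stc2 rose in the CA1 KO (0.75, SE 0.18, adjusted p = 0.0316 by edgeR) and was at 0.36 (adjusted p = 0.362 by edgeR) in the neocortex. Lrp1, an endocytic receptor that binds IGFBP3, rose by 0.25 (SE 0.053, adjusted p = 0.0276 by edgeR) in the neocortex and by 0.22 (SE 0.049, adjusted p = 0.0246 by edgeR) in the CA1. Vtn, a matrix protein that binds IGF2, rose by 0.58 (SE 0.086, adjusted p = 0.00222 by edgeR) in the CA1, where it is also on the pericyte list.

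Among insulin ligands, receptors and adaptors, the insulin receptor gene Insr had log2 fold changes of 0.06 and 0.08 (adjusted p = 0.640 and 0.620 by edgeR). The adaptor Irs1 rose in the neocortex by 0.38 (SE 0.082, adjusted p = 0.0323 by edgeR), with 29.2, 28.4 and 25.1 CPM in KO libraries, against 22.2, 19.8 and 21.6 CPM in control libraries. In the CA1 it was at 0.23 (adjusted p = 0.170 by edgeR). Irs2 did not pass in either tissue, at -0.04 (adjusted p = 0.971 by edgeR) in the neocortex and 0.11 (adjusted p = 0.641 by edgeR) in the CA1. The adaptor Sh2b2 rose in the CA1 (0.65, SE 0.17, adjusted p = 0.0482 by edgeR). The insulin receptor-related gene Insrr passed in the CA1 at 3.48 (SE 0.78, adjusted p = 0.0245 by edgeR) from a low level, 0.614 and 0.399 CPM in KO libraries, against 0.0757, 0 and 0.0569 CPM in control libraries. With a control library at 0, the size of that fitted change depends on the prior count.

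Of the 27 genes of the PI3K, AKT, mTOR and FOXO arm, 1 rose, 1 fell and 25 did not pass in the neocortex. The kinase gene Akt1 fell in the neocortex by 0.22 (SE 0.048, adjusted p = 0.0346 by edgeR). The PI3K regulatory subunit Pik3r1, at 0.11 in the neocortex and -0.12 in the CA1 (adjusted p = 0.268 and 0.382 by edgeR), did not pass. In the CA1 0 of the 27 passed by edgeR and 1 by DESeq2, while 7 had an unadjusted p under 0.05.

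None of the genes tested on the lists of Igf2 mRNA-binding proteins with the let-7 and Lin28 partners, and of imprinted genes near Igf2 and Igf2r, passed in either tissue by edgeR or by DESeq2. Of the first list 2 of 6 genes were tested in the neocortex and 4 in the CA1. Of the second list 7 of 12 were tested in each tissue, and the others were too low in counts. At an unadjusted p under 0.05 there were 0 and 1 in the neocortex and 1 and 2 in the CA1. Igf2bp2, which binds Igf2 mRNA, was at -0.02 (adjusted p = 0.977 by edgeR) in the neocortex and -0.91 (SE 0.48, adjusted p = 0.360 by edgeR) in the CA1, with 0.351 and 0.239 CPM in CA1 KO libraries, against 0.530, 0.607 and 0.569 CPM in CA1 control libraries.

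Likeness to each member was measured by Pearson's r of log2 CPM, centred within each tissue, over the 11 libraries and 14685 genes. It is a description, and the libraries share animals and genotype. The genes most like Igf2 were Map3k4 (0.960), Aebp1 (0.956) and Mxra8 (0.954), of which Aebp1 is on the meningeal fibroblast list. Those most like Igf2r were Cxadr (0.980), 1700020I14Rik (0.968) and G3bp1 (0.964), and those most like Igfbp2 were Icam2 (0.954), Gm20460 (0.942) and Vtn (0.925). For Igfbp5 they were Slc16a12 (0.932), Prkd2 (0.930) and Gm16008 (0.925), and for Igfbp6 Zc3hc1 (0.972), BC029722 (0.970) and Ngef (0.969). For Igf1r they were Mark3 (0.951), Mpzl3 (0.930) and Mllt10 (0.930), and for Igf1 ENSMUSG00000085583 (0.937), Kctd10 (0.934) and Alg5 (0.894). For Igfbp3 they were LTO1 (0.899), Zfp428 (0.897) and Arl4a (0.892), for Igfbp4 Slc11a2 (0.947), Slc30a3 (0.941) and Prss23 (0.938), and for Igfbp7 Pitpnm2 (0.935), Cnppd1 (0.930) and Adipor2 (0.917).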

How the data were processed

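The authors deposited raw counts of reads for each Ensembl gene, without normalization, per the file headers and the values. Per the labels' protocols, the kit was stranded for the neocortex, with ERCC spike-ins added, and unstranded for the CA1. Per the submitters' processing notes, GSNAP, SAMtools, bedtools and FastQC were used with GRCm38; the counting rule and annotation release are not given in the sources used here. The table held 39109 entries, 92 of them ERCC RNAs, and 37693 of 39017 gene identifiers matched GENCODE M21.

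Counts were compared with edgeR 4.0.16 (R 4.3.3) within each tissue: TMM, filterByExpr, robust quasi-likelihood F-test, two-sided, Benjamini-Hochberg adjustment over all genes tested, threshold 0.05. The difference between tissues was tested in 1 fit of 11 libraries with 4 group means. CPM uses TMM-scaled library sizes and RPKM the union of annotated exons. The labels name the same animal for both tissues of 4 animals. Deviations from group means correlated at 0.153 to 0.246 within an animal and -0.279 to 0.0613 between animals. Since the deviations in a group sum to 0, these ranges are tied to each other and do not measure the strength of pairing. Because animals were shared, 1 alternative used animal as a block. Others were DESeq2 1.42.0, other scalings, no filter, spike-in sets and leaving out each library. A self-test on simulated counts preceded the fits. No 2 libraries of a group were copies (chi-square per gene 9.99 to 22.1).

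The members and lists were chosen with earlier results of these data known. All 10 members are named, with pathway genes past the threshold (at most 6 per list and tissue), Insr, Irs1, Irs2, Pik3r1 and Igf2bp2, and at most 4 markers per list by level unless stated. Nothing in the labels says more of the replicates than that they are separate animals. Genes that share sequence or overlap are uncertain to the extent that counting split their reads. The values of 1 pathway gene that passed are not reported here.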

Additional observations from a re-analysis of the deposited data

Results flagged for a closer look

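The KO effect on Igfbp2 differed between the tissues by a test of the difference itself. It was 0.91 log2 in the CA1 and -0.14 log2 in the neocortex, a difference of 1.05 (SE 0.17, edgeR adjusted p = 0.0313), and it was the 1 difference of this kind among the 10 genes. Its levels in every library, the markers that stand beside it and the libraries that end the call are given above.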

How the results depend on the processing

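Of the values of the 10 genes under the alternatives, 109 of 130 in the neocortex, 71 of 80 in the CA1 and 144 of 160 for the difference between tissues kept their direction and their side of the threshold. The number of genes called among the 10 was 2 in the neocortex and was 0 with the spike-in set as a term, within either set and with ERCC scaling, and 0 to 3 with 1 library left out. In the CA1 it stayed between 3 and 4. For the difference between tissues it was 1, 0 to 1 with 1 library left out, and 0 with only the animals that gave both tissues (Igfbp2 1.27, edgeR adjusted p = 0.0720).

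With animal as a replicate block Igfbp2 stayed called (1.28) and Igf1 changed sign (-0.12), 4 other pathway genes passed where 0 had, and no other call among the 10 genes changed. DESeq2 gave 3 and no filter 5 such pathway genes, and no filter gave 12 in the CA1. In the neocortex the pathway count was 0 with ERCC scaling, 1 with the set as a term, 0 and 1 within the sets and 1 to 4 with 1 library left out, and in the CA1 1 to 7.

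ERCC scaling raised the median log2 fold change of all neocortex genes to 1.06 and turned 4 members positive: Igfbp2 0.89, Igfbp3 0.79, Igfbp4 0.93 and Igfbp6 0.55. Less that median, Igfbp6 was -0.51 and Igf2r 0.38. Other signs turned where values were near 0: Igfbp7 in the neocortex was -0.0922 within a spike-in set and ran from -0.0144 (without D5135) to 0.184 with 1 library left out, Igfbp3 in the CA1 ran from -0.18 to 0.13 and Igfbp6 from -0.43 to 0.0566 with 1 library left out. Between tissues Igf1 was -0.15 with only the animals that gave both tissues. With 1 library left out Igf1 ran from -0.12 to 0.32, Igf2r from -0.17 to 0.0199, Igfbp6 from -0.0568 to 0.45 and Igfbp7 from -0.0747 to 0.35. The cause of these changes was not tested. The CA1 had 2 KO animals, and Igf1 was read from 31 to 112 reads per library, which limits the precision of its values.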
